A study of Mus musculus with 18 samples.

Results

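Collagens, laminins and the enzymes that modify the extracellular matrix were described in mouse B16 F10.9-4 melanoma cells that were made to express LIP and then stressed with tunicamycin. The set held 37 genes listed by name and not by a cut on their values. Earlier results of these data were known when the list was made. For each gene the brightest probe set that carries that gene's symbol alone was taken from the deposited log2 table. Of the 37 genes 34 were measured, among 19938 genes with such a probe set. Loxl2 had only a probe set that carries 2 symbols, and Spp1 and Fbn1 had no row under their symbol in the probe table used here. The 34 comprised 11 collagen chains, 9 laminin, nidogen and perlecan genes, 5 other glycoproteins and small proteoglycans, 4 crosslinking enzymes, and 5 proteases and protease inhibitors.

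Each collagen molecule is a helix wound from several chains. The fibrillar chains of types I, III and V form fibres, while type IV forms the sheet of the basement membrane. Laminins are assembled inside the cell from an alpha, a beta and a gamma chain before secretion, and nidogens and perlecan tie the laminin sheet to type IV collagen. Lysyl hydroxylases (Plod genes) modify collagen within the endoplasmic reticulum (ER), lysyl oxidases crosslink it outside the cell, and matrix metalloproteinases and their tissue inhibitors (Timp genes) set how fast the matrix is cut. All of these proteins pass through the ER, where most receive N-linked glycans. In melanoma, matrix made by the tumour cells themselves is known to bear on adhesion and invasion.

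The study asked how LIP bears on the response of these cells to ER stress. LIP, the short isoform of the transcription factor C/EBPβ, was switched on by doxycycline given ahead of tunicamycin, an inhibitor of N-linked glycosylation. RNA was taken at 0, 5 and 12 h of tunicamycin. There were 6 groups of 3 arrays, from 3 independent experiments that, per the series design, each held a control and all treatments: cells given vehicle, cells given doxycycline, cells given tunicamycin for 5 or for 12 h, and cells given doxycycline and then tunicamycin for 5 or for 12 h. All groups were the same cell line. Arrays 1, 2 and 3 of a group carry those replicate numbers in the labels, which do not say outright that a number marks the same experiment in every group. Vehicle was hybridized at 0 h alone among the arrays used, so hours in culture cannot be told apart from tunicamycin. Every doxycycline array is also a LIP array, so the drug itself cannot be told apart from LIP. In bulk RNA, fewer expressing cells and less RNA per cell also cannot be told apart.

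Cebpb, the induced gene, was higher with doxycycline by 1.84 ± 0.071 (SE, adjusted p = 2.02e-11) before tunicamycin, by 1.81 at 5 h and by 1.22 at 12 h; its probe set is not specific to LIP. Values are log2 intensities after RMA, a difference of 1 is a doubling, and a gene was called where limma's adjusted p over all 19938 genes was under 0.05. There are no detection calls, and 1194 olfactory and vomeronasal receptor genes stood in for silent genes: 95% of them lay under 6.07. Of the 34 matrix genes 26 had a mean above that level. Arrays of a group correlated at r of 0.997 to 0.999, and array 2 of tunicamycin 5 h had the largest residual spread. All 7 melanocyte markers (Mitf, Sox10, Pmel, Mlana, Tyr, Tyrp1 and Dct) were above 6.07, and their mean level was lower with doxycycline at 0 h (11.66 against 11.96), at 5 h (11.58 against 11.96) and at 12 h (11.40 against 11.88). Of the 7 fibroblast markers 4 were above it: Postn at 9.30, Col6a3 at 6.73, and Pdgfra and Thy1 each at 6.29. Pdgfrb, Lum and Dpt were at 5.97, 4.50 and 4.86, and the mean of that list lay between 6.23 and 6.34 in every group. Of 4 endothelial and 4 leukocyte markers 1 each was above 6.07, Cdh5 and Cd68, and the list means lay between 5.65 and 5.71 and between 5.86 and 6.02. The part of these marker levels in the results was not tested.

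Of the 7 genes called with doxycycline at all 3 times, the laminin chains that rose and Nid1, which fell, have their upstream sequences shown first. Each is the 250 bases before the annotated start site in RefSeq (GRCm38.p6), 5′ to 3′ on the gene's strand, with capitals where a searched motif matched. Lama5 is at chr2:180225860-180226109 (minus strand), Lamb1 at chr12:31265043-31265292 (plus strand), Lamb2 at chr9:108479612-108479861 (plus strand) and Nid1 at chr13:13437352-13437601 (plus strand).
Lama5: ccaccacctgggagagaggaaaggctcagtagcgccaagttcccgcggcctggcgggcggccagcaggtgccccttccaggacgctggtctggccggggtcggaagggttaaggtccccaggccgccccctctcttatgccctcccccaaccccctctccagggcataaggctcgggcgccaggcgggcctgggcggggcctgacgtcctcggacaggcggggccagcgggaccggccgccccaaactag
Lamb1: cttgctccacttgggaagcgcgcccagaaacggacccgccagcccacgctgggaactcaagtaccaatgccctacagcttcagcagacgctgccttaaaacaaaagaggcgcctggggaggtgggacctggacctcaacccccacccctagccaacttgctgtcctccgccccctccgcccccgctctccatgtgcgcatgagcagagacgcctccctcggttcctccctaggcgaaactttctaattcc
Lamb2: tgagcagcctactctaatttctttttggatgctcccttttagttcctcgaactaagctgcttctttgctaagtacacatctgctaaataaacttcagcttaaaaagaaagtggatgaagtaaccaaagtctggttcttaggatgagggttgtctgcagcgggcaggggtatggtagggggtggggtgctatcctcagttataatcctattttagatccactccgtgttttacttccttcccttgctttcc
Nid1: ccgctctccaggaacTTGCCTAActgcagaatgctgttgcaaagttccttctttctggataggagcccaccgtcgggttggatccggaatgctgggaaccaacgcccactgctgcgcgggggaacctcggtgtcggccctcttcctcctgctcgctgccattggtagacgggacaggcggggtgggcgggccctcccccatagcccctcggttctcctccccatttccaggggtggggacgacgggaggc
The capitals in Nid1 mark TTGCCTAA, a match to the C/EBP motif TTGCNNAA whose first base is at position -235 from the start site.

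Promoter windows of 300 bases, from 250 before to 50 after a start site, were found for 21 of the 34 genes (24 windows), and both strands were searched. Col12a1, Col1a1, Col5a2, Dcn, Fn1, Lama1, Lama4, Lamc1, Lox, Loxl3, Mmp2, Nid2 and Plod2 had no entry. TTGCNNAA was in 2 of the 24 windows (8.33%), those of Nid1 and Col6a2, against 10.8% of all 32851 windows. TGATGNAA, the composite C/EBP and ATF motif, was in 0 of 24 against 3.97% of all windows. The ER stress element, searched by its full consensus, was in 0 of 24 against 0.119%, and the unfolded protein response element TGACGTGG was in 1, that of Timp1, against 0.676%. No window held more than 1 match, and those of Timp3 and Col1a2, also called with doxycycline at every time, held none. Col4a1 and Col4a2 lie head to head on chromosome 8, with annotated start sites 21 bases apart on opposite strands. A match describes the letters in these windows and is not a measured binding site.

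Doxycycline alone raised laminin chains and fibronectin and lowered nidogen 1 and 1 collagen chain. Of the 34 genes 5 rose and 2 fell (20.6% called); 10.7% of all genes were called in this comparison, 4.89% higher and 5.82% lower. The median difference was 0.09 over the 34 and 0.02 over all genes. At 5 h of tunicamycin 9 were higher and 2 lower with doxycycline (32.4% called; 12.0% of all genes were called in this comparison, 6.76% higher and 5.21% lower). At 12 h 13 were higher and 2 lower (44.1% called; 14.7% of all genes were called in this comparison, 6.95% higher and 7.77% lower). The 7 genes called before tunicamycin, Lama5, Lamb1, Lamb2, Fn1, Timp3, Nid1 and Col1a2, were called in the same direction at all 3 times. These 3 comparisons share no array, but all use 1 estimate of each gene's spread from the 18 arrays. The share of all genes called in the same direction at all 3 times is not given here.

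**Figure D1:**
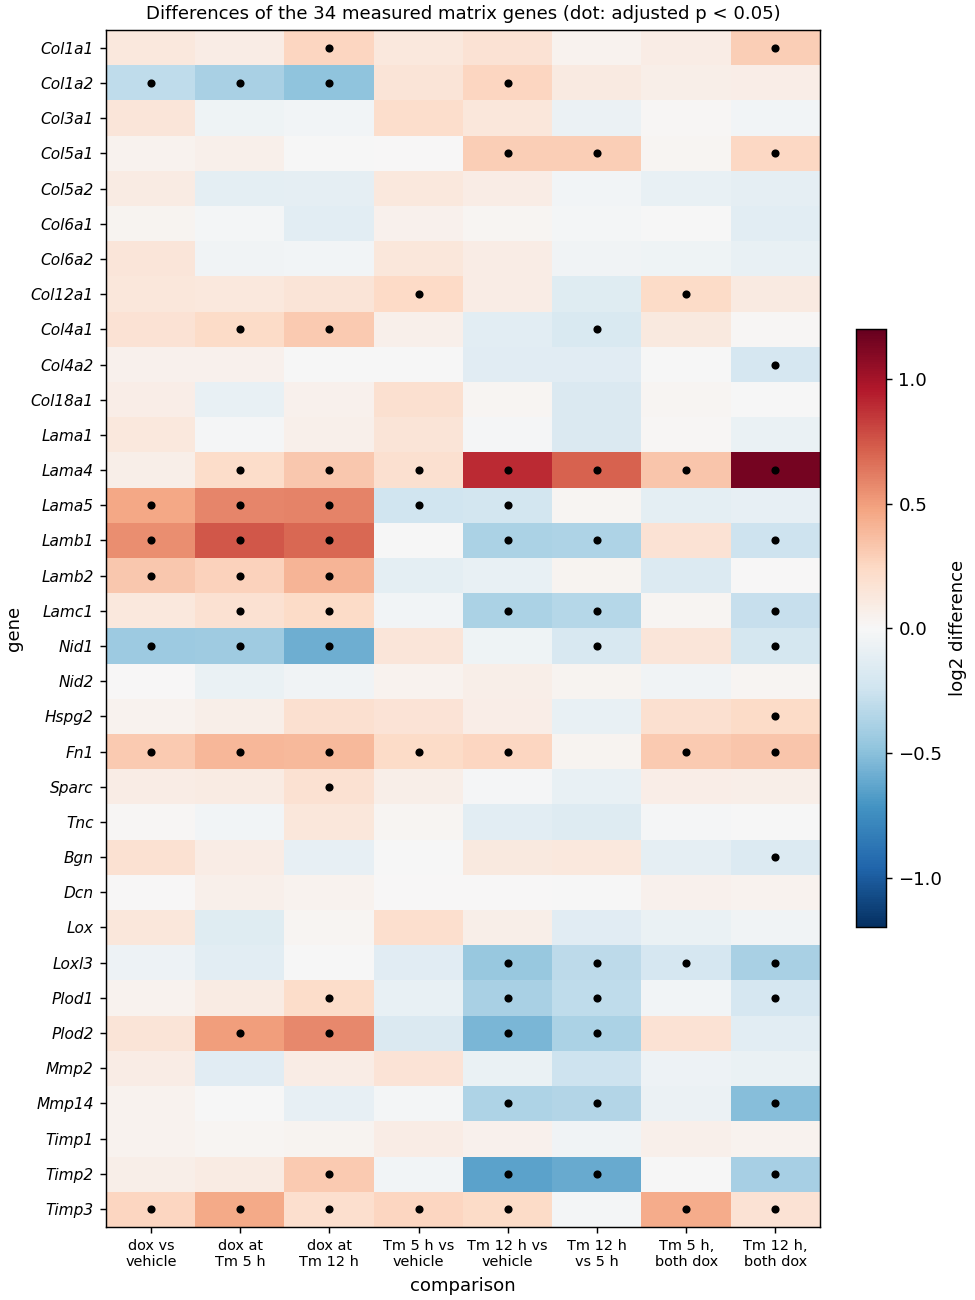
Log2 differences of the 34 measured matrix genes (rows, in order of their role) in the 8 comparisons (columns); red is higher and blue lower in the first-named group, and a dot marks limma's adjusted p under 0.05 over all genes. The left columns (dox) are red for the laminins Lama5, Lamb1 and Lamb2, and the column of 12 h tunicamycin against vehicle is blue for Loxl3, Plod1, Plod2 and Timp2, with Lama4 its deepest red.

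The largest rise was in Lamb1, the beta-1 chain of many laminins. It read 8.04, 7.98 and 7.96 in vehicle and 8.48, 8.54 and 8.62 with doxycycline, a difference of 0.56 ± 0.076 (SE, adjusted p = 9.82e-05), or 1.47-fold. Under 5 h of tunicamycin it read 8.13, 7.92 and 7.90 without and 8.77, 8.73 and 8.67 with doxycycline (1.67-fold, adjusted p = 2.23e-06). At 12 h the values were 7.45, 7.68 and 7.70 against 8.23, 8.44 and 8.24 (1.61-fold, adjusted p = 3.53e-06). At each time the lowest doxycycline array stood above the highest array without it. The share of all genes whose groups lie apart is not given, here or for the genes below.

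Lama5, the alpha-5 chain of basement membranes, read 8.95, 9.00 and 8.94 in vehicle and 9.48, 9.34 and 9.47 with doxycycline. The difference was 0.46 ± 0.056 (SE, adjusted p = 2.51e-05). At 5 h the arrays read 8.71, 8.71 and 8.75 without and 9.34, 9.29 and 9.30 with doxycycline, a difference of 0.59 (adjusted p = 8.54e-07), and at 12 h 8.64, 8.83 and 8.76 and 9.26, 9.42 and 9.32, a difference of 0.59 (adjusted p = 4.75e-07). The 9 doxycycline arrays all stood above the 9 others. Lamb2, the beta-2 chain, read 10.08, 10.11 and 10.12 in vehicle and 10.44, 10.37 and 10.45 with doxycycline, a difference of 0.32 ± 0.062 (SE, adjusted p = 0.00209). It rose by 0.28 at 5 h, from 9.97, 10.01 and 9.98 to 10.29, 10.27 and 10.22, and by 0.41 at 12 h, from 9.92, 10.08 and 10.04 to 10.27, 10.57 and 10.43. Here too the doxycycline arrays lay above the others of the same time.

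Lamc1, the gamma-1 chain that most laminins share, and Lama4, the alpha-4 chain of vessel and mesenchymal laminins, were called with doxycycline only together with tunicamycin, but the change in the doxycycline difference did not pass the test for either. Lamc1 differed by 0.13 before tunicamycin (adjusted p = 0.197), 0.19 at 5 h (adjusted p = 0.0421) and 0.23 at 12 h (adjusted p = 0.00872). Its call at 5 h was lost without tunicamycin 5 h array 1, 2 or 3 or doxycycline plus tunicamycin 5 h array 2 or 3 (adjusted p of 0.0549 to 0.157) and with array medians set equal, and its call at 12 h without tunicamycin 12 h array 1 (adjusted p = 0.064). Lama4 differed by 0.07 (adjusted p = 0.392), 0.22 (adjusted p = 0.0032) and 0.32 (adjusted p = 5.31e-05) at the 3 times. Lama1, the alpha-1 chain of early embryonic laminin, had a group mean between 5.94 and 6.11, near the silent genes, and was called in no comparison.

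Nidogen 1, which links laminin to type IV collagen, moved the other way. Nid1 read 7.55, 7.57 and 7.75 in vehicle and 7.21, 7.18 and 7.19 with doxycycline, a difference of -0.43 ± 0.066 (SE, adjusted p = 0.00026). The values were 7.76, 7.71 and 7.83 against 7.24, 7.34 and 7.44 at 5 h (adjusted p = 0.00018) and 7.49, 7.58 and 7.65 against 6.92, 6.95 and 7.09 at 12 h (adjusted p = 4.18e-06). It fell by 0.43 at 5 h and by 0.59 at 12 h, and at each time the groups did not overlap. Nid2, its paralog, had differences of 0.01, -0.08 and -0.04, none of them called, with intervals of -0.11 to 0.13, -0.20 to 0.04 and -0.16 to 0.08. Perlecan (Hspg2), a large heparan sulfate proteoglycan, differed by 0.04, 0.07 and 0.20 and was not called either.

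**Figure D2:**
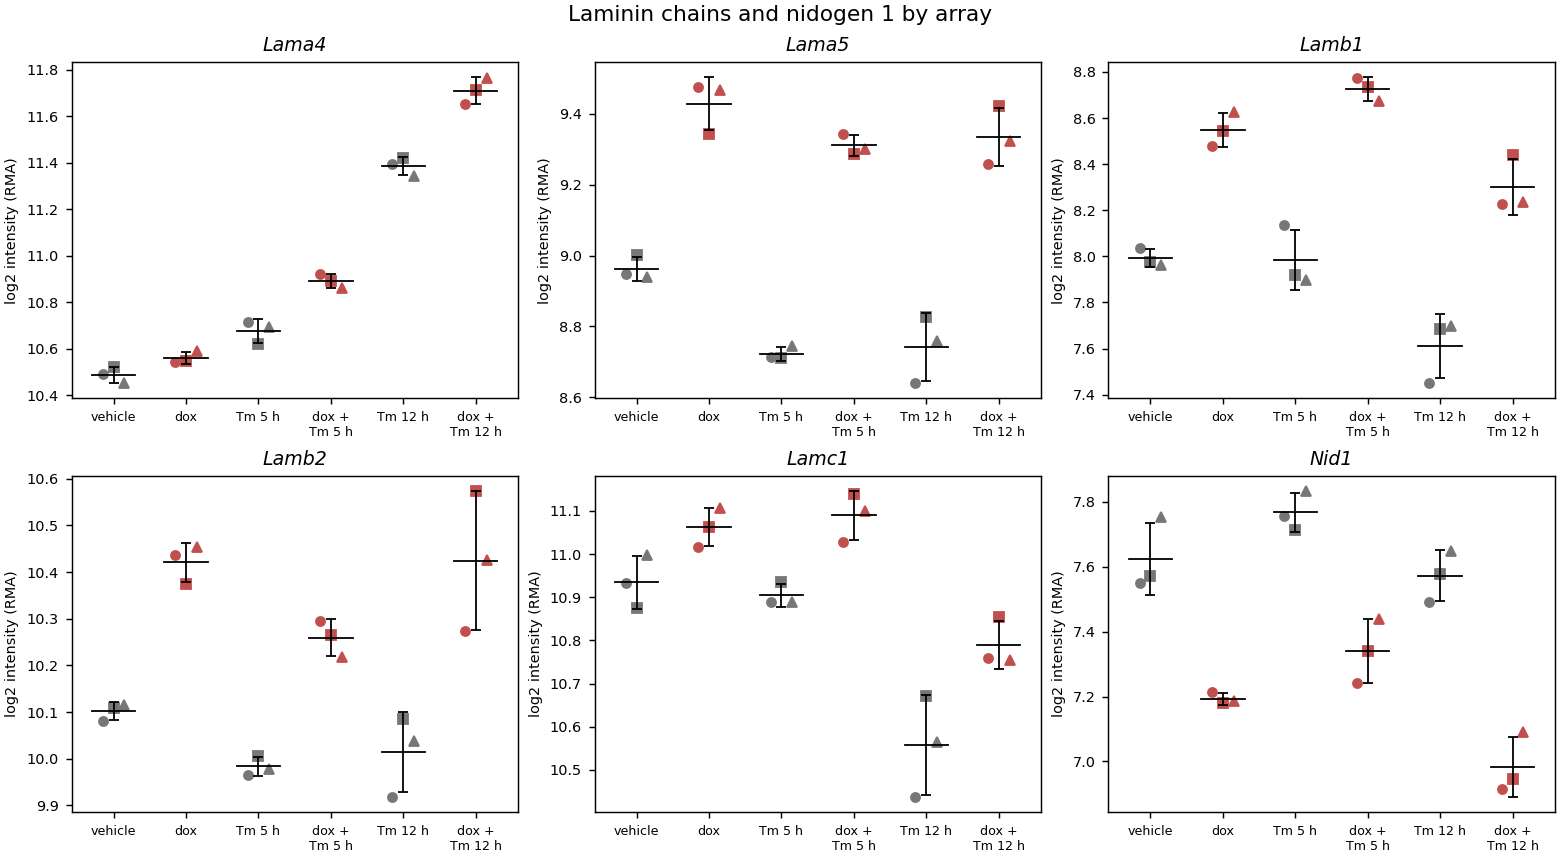
Log2 intensity (vertical axis, a separate range for each panel) of 5 laminin chains and nidogen 1 in the 18 arrays, by group; circles, squares and triangles are arrays 1, 2 and 3, red points had doxycycline, and lines and bars give the mean and SD (n = 3). Lamb1, Lama5 and Lamb2 sit higher and Nid1 lower in each red group than in the grey group to its left, while Lama4 climbs from 10.49 in vehicle to 11.71 with both agents at 12 h.

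Fibronectin, the adhesive glycoprotein that integrins bind and that starts fibre assembly, rose in every comparison with doxycycline and in every comparison with vehicle or doxycycline alone. Fn1 read 11.19, 11.28 and 11.31 in vehicle, 11.54, 11.57 and 11.61 with doxycycline, 11.42, 11.56 and 11.57 after 12 h of tunicamycin and 11.86, 11.94 and 11.91 with both. The doxycycline difference was 0.32 ± 0.050 (SE, adjusted p = 0.00036) at 0 h, 0.40 at 5 h and 0.39 at 12 h. Tunicamycin raised Fn1 by 0.23 at 5 h and 0.26 at 12 h, and by 0.31 and 0.33 under doxycycline; the comparisons of both agents share control arrays. Timp3, a matrix-bound inhibitor of metalloproteinases, was also called in all of these. It read 10.10, 9.97 and 10.02 in vehicle, 10.34, 10.26 and 10.27 with doxycycline, 10.36, 10.23 and 10.26 at 5 h of tunicamycin and 10.76, 10.69 and 10.76 with both at 5 h. Its doxycycline difference was 0.26, 0.45 and 0.20 at 0, 5 and 12 h. The last of these was lost without tunicamycin 12 h array 1 or doxycycline plus tunicamycin 12 h array 3 (adjusted p of 0.122 to 0.149) and with array medians set equal. Over 12 h under doxycycline it rose by 0.17, a call lost without doxycycline array 2 or 3 or doxycycline plus tunicamycin 12 h array 3 (adjusted p of 0.0912 to 0.195).

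Among the collagens Col1a2 and Col4a1 had the clearest doxycycline differences, in opposite directions. Col1a2, the second chain of type I collagen, read 7.96, 7.92 and 7.99 in vehicle and 7.62, 7.63 and 7.70 with doxycycline, a difference of -0.31 ± 0.090 (SE, adjusted p = 0.033). It read 7.99, 8.28 and 8.06 against 7.67, 7.85 and 7.64 at 5 h (-0.39, adjusted p = 0.00587) and 8.20, 8.01 and 8.45 against 7.69, 7.78 and 7.72 at 12 h (-0.49, adjusted p = 0.000763). The groups did not overlap at any time, but the call before tunicamycin was lost without vehicle array 1, 2 or 3 or doxycycline array 1, 2 or 3 (adjusted p of 0.0602 to 0.109). Col1a1, its partner chain, differed by 0.13, 0.09 and 0.25; only the last was called (adjusted p = 0.0209), and it was lost without tunicamycin 12 h array 1 or 2 or doxycycline plus tunicamycin 12 h array 2 (adjusted p of 0.0705 to 0.0903).

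Col4a1 and Col4a2, the usual chains of type IV collagen, did not give the same calls although they start 21 bases apart. Col4a1 differed with doxycycline by 0.18 (adjusted p = 0.0762), 0.23 (adjusted p = 0.0156) and 0.31 (adjusted p = 0.00124). Col4a2 differed by 0.05, 0.05 and -0.01, with intervals of -0.09 to 0.20, -0.09 to 0.20 and -0.15 to 0.14, and was not called; the difference between the chains was not tested. The call of Col4a1 at 5 h was lost with only the compared groups in the fit and without doxycycline plus tunicamycin 5 h array 2 or 3 or tunicamycin 5 h array 3 (adjusted p of 0.0538 to 0.0877). Of the 11 collagen chains 1 fell and 0 rose before tunicamycin, 1 rose and 1 fell at 5 h, and 2 rose and 1 fell at 12 h (9.09%, 18.2% and 27.3% called, against 10.7%, 12.0% and 14.7% of all genes).

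**Figure D3:**
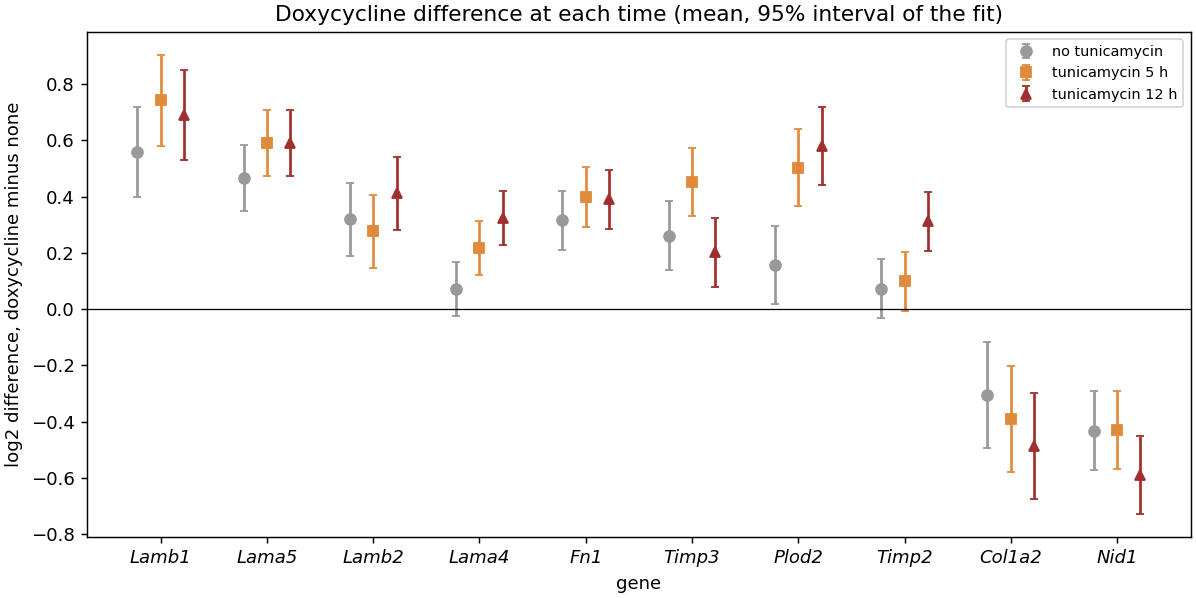
Log2 difference between arrays with and without doxycycline (vertical axis) for 10 matrix genes (horizontal axis) before tunicamycin, at 5 h and at 12 h; points are means of 3 arrays against 3 and bars the 95% interval of the fit. Lamb1, Lama5, Lamb2, Fn1 and Timp3 lie above 0 and Col1a2 and Nid1 below 0 at all 3 times, and Plod2 goes from 0.16 to 0.58.

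Tunicamycin for 12 h lowered the crosslinking enzymes Loxl3, Plod1 and Plod2, the protease Mmp14 and its inhibitor Timp2, and raised the laminin chain Lama4. Against vehicle 5 of the 34 genes rose and 8 fell (38.2% called; 27.7% of all genes were called in this comparison, 11.9% higher and 15.8% lower). Their median difference was 0.01 and that of all genes 0.00. Under doxycycline 6 rose and 9 fell between 0 and 12 h (44.1% called; 29.9% of all genes were called in this comparison, 13.4% higher and 16.6% lower). From 5 to 12 h of tunicamycin 2 rose and 9 fell (32.4% called; 25.0% of all genes were called in this comparison, 11.4% higher and 13.6% lower), and with array medians set equal 3 rose and 7 fell.

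Lama4 changed most of the 34. It read 10.49, 10.52 and 10.45 in vehicle, 10.72, 10.62 and 10.69 at 5 h and 11.40, 11.42 and 11.34 at 12 h. The rise over vehicle was 0.90 ± 0.046 (SE, adjusted p = 3.34e-11) at 12 h, or 1.87-fold. Under doxycycline the arrays read 10.54, 10.55 and 10.59 at 0 h, 10.92, 10.89 and 10.86 at 5 h and 11.65, 11.71 and 11.77 at 12 h, a rise of 1.15 ± 0.046 (SE, adjusted p = 9.17e-13) or 2.22-fold. The groups at 0, 5 and 12 h did not overlap in either series. The rise of 0.19 at 5 h without doxycycline lost its call without tunicamycin 5 h array 1 or 3 or vehicle array 3 (adjusted p of 0.0528 to 0.0709), and with array medians set equal.

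Lamc1 and Lamb1, which can join Lama4 in a laminin, fell over the same time. Lamc1 read 10.93, 10.87 and 11.00 in vehicle and 10.44, 10.67 and 10.56 at 12 h, a difference of -0.38 ± 0.058 (SE, adjusted p = 4.13e-05), and -0.27 under doxycycline (adjusted p = 0.000996). Lamb1 fell from 8.04, 7.98 and 7.96 to 7.45, 7.68 and 7.70, a difference of -0.38 ± 0.076 (SE, adjusted p = 0.000707). Under doxycycline it fell by 0.25 (adjusted p = 0.0183), a call that was lost without doxycycline plus tunicamycin 12 h array 1 or 3 or doxycycline array 3 (adjusted p of 0.0832 to 0.0885). Lama5 fell by 0.22 at 12 h (adjusted p = 0.00486) and differed by -0.09 under doxycycline, which was not called. Lamb2 was not called without doxycycline (-0.09, interval -0.22 to 0.04) or with it (0.00, interval -0.13 to 0.13). Of the fibrillar collagens Col5a1, a chain of type V collagen, which regulates fibre width, rose by 0.29 at 12 h (adjusted p = 0.000261) and by 0.25 under doxycycline (adjusted p = 0.00107). Col1a2 rose by 0.26 without doxycycline (adjusted p = 0.0355), but lost that call without vehicle array 1, 2 or 3 or tunicamycin 12 h array 1 or 3 (adjusted p of 0.0582 to 0.246).

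**Figure D4:**
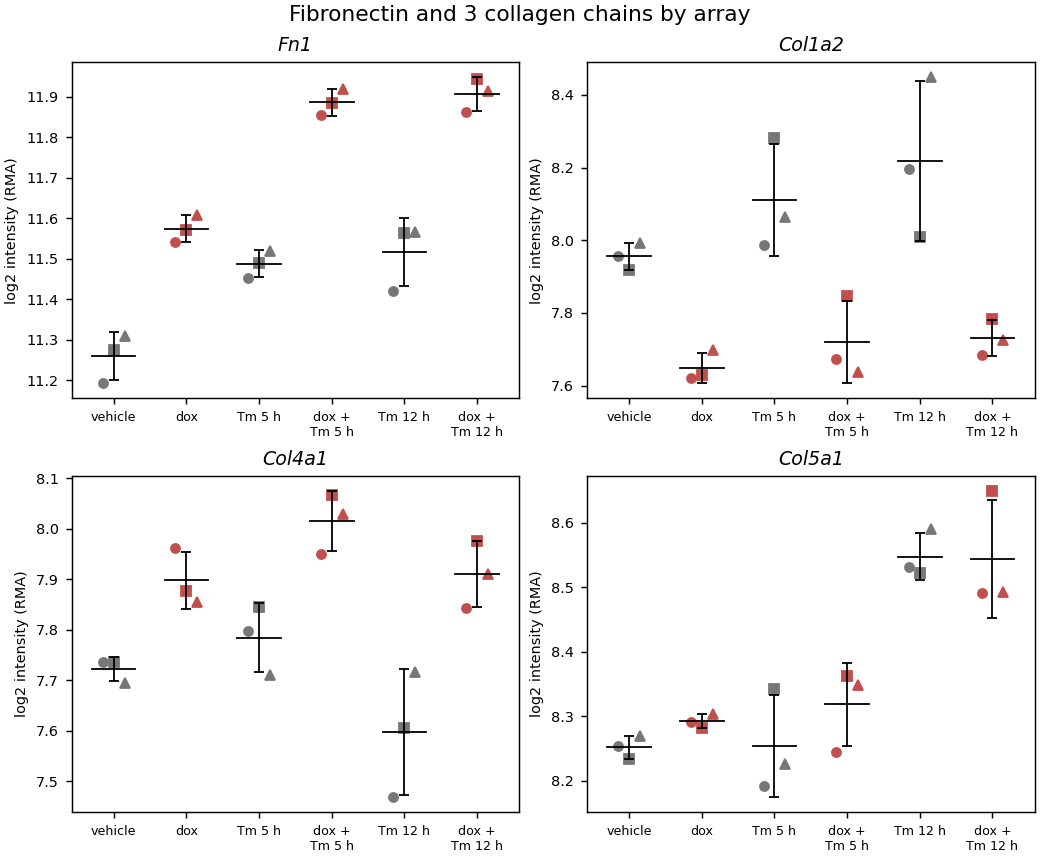
Log2 intensity (vertical axis, a separate range for each panel) of fibronectin and 3 collagen chains in the 18 arrays, by group; marks are arrays 1 (circle), 2 (square) and 3 (triangle), red had doxycycline, and lines and bars are the mean and SD (n = 3). Fn1 is higher and Col1a2 lower in each red group than in the grey group beside it, and Col5a1 is higher in both 12 h groups, near 8.55, than at 0 h.

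Lysyl hydroxylases and a lysyl oxidase fell with 12 h of tunicamycin. Plod2, which hydroxylates the ends of collagen chains for stable crosslinks, read 10.60, 10.79 and 10.70 in vehicle and 10.01, 10.29 and 10.14 at 12 h, a difference of -0.55 ± 0.065 (SE, adjusted p = 2.17e-06). Plod1, which acts on the helical part, read 11.11, 11.04 and 11.11 and 10.69, 10.75 and 10.66, a difference of -0.39 ± 0.053 (SE, adjusted p = 1.05e-05). Loxl3, an oxidase that starts crosslinks outside the cell, read 10.80, 10.76 and 10.82 and 10.34, 10.39 and 10.29, a difference of -0.45 ± 0.051 (SE, adjusted p = 1.32e-06). In all 3 the groups did not overlap, which is given without the share over all genes. Lox, the founding lysyl oxidase, had group means of 4.88 to 5.08, within the range of silent genes. Under doxycycline Loxl3 fell by 0.39 and Plod1 by 0.20, while Plod2 differed by -0.13 (adjusted p = 0.173).

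In the main fit only Plod2 of the 34 genes had a called change in its doxycycline difference with 12 h of tunicamycin. Its doxycycline difference was 0.16 at 0 h (adjusted p = 0.153), 0.50 at 5 h (adjusted p = 3.08e-05) and 0.58 at 12 h (adjusted p = 4.28e-06). The arrays at 12 h read 10.01, 10.29 and 10.14 without and 10.75, 10.74 and 10.68 with doxycycline. The interaction, which is the doxycycline difference at 12 h less that at 0 h, was 0.42 ± 0.092 (SE, adjusted p = 0.0213). It was lost without doxycycline array 1 or 3, tunicamycin 12 h array 1, doxycycline plus tunicamycin 12 h array 1 or vehicle array 2 or 3 (adjusted p of 0.0531 to 0.0672), and the count of called genes was 2 without tunicamycin 12 h array 2. Of 34 genes 1 was called at 12 h (2.94%), and it was higher, against 1.84% of all genes called and 0.993% higher. That count was 2 with quantile normalization repeated or dim genes left out, and 3 with a variance trend. At 5 h 0 were called (0.0301% of all genes). Of the 34 genes limma's unadjusted p was under 0.05 in 6 at 12 h and in 4 at 5 h. The share of all genes under that p is not given here, so these counts have no background. The interactions of the matrix genes other than Plod2 ran from -0.29 to 0.25 at 12 h and from -0.28 to 0.19 at 5 h, and Lama4 at 12 h had 0.25 (adjusted p = 0.0554).

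Mmp14, the membrane-bound metalloproteinase that activates Mmp2, and Timp2, the inhibitor that bridges them, both fell late. Timp2 read 12.02, 11.97 and 12.04 in vehicle, 11.97, 11.96 and 11.99 at 5 h and 11.28, 11.47 and 11.35 at 12 h. The difference at 12 h was -0.64 ± 0.050 (SE, adjusted p = 9.74e-09), a 1.56-fold fall. With doxycycline the 12 h arrays read 11.64, 11.75 and 11.65, above those without it by 0.31 ± 0.050 (SE, adjusted p = 0.000194). Mmp14 read 10.81, 10.73 and 10.75 in vehicle and 10.39, 10.43 and 10.36 at 12 h, a difference of -0.37 ± 0.047 (SE, adjusted p = 5.24e-06). With doxycycline it read 10.85, 10.76 and 10.82 at 0 h and 10.29, 10.28 and 10.32 at 12 h, a difference of -0.51 ± 0.047 (SE, adjusted p = 7.7e-08). Mmp2, the secreted gelatinase that they act on, had group means of 7.03 to 7.28 and was called in no comparison, and neither was Timp1, at 5.27 to 5.37.

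**Figure D5:**
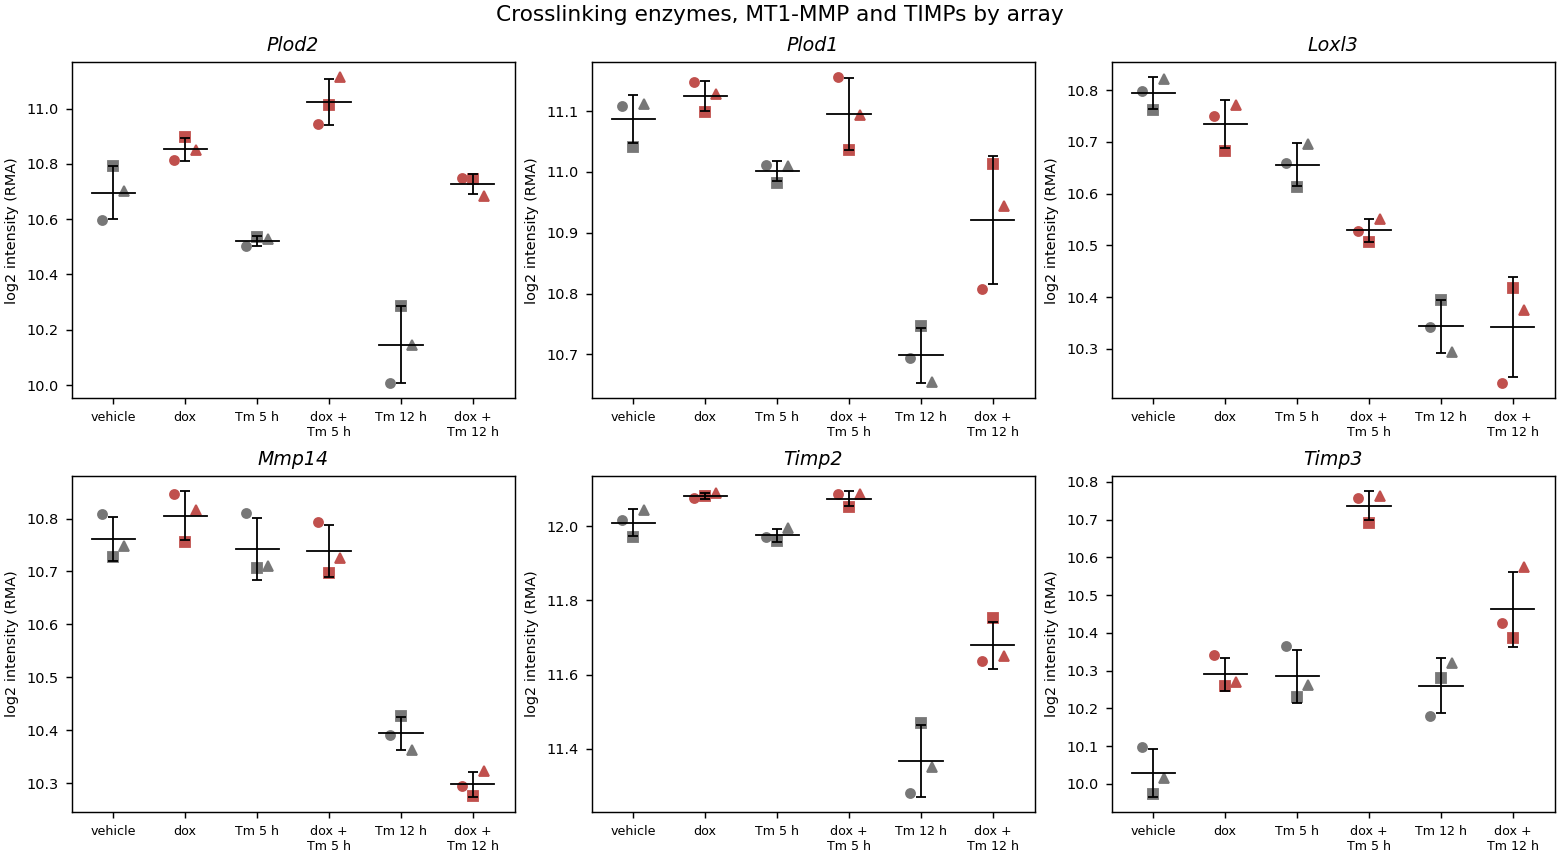
Log2 intensity (vertical axis, a separate range for each panel) of 3 crosslinking enzymes, Mmp14 and 2 TIMPs in the 18 arrays, by group; marks are arrays 1 (circle), 2 (square) and 3 (triangle), red had doxycycline, and lines and bars are the mean and SD (n = 3). At 12 h Plod2, Plod1, Loxl3, Mmp14 and Timp2 lie below vehicle in the grey group, and Plod2 stands at 10.73 in the red group against 10.15 in the grey.

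At 5 h of tunicamycin the calls were few. Against vehicle 4 genes rose and 1 fell (14.7% called; 9.02% of all genes were called in this comparison, 4.08% higher and 4.94% lower). Timp3 (0.26), Col12a1 (0.23), Fn1 (0.23) and Lama4 (0.19) rose, and Lama5 fell by 0.24. With array medians set equal 2 rose and 3 fell: Timp3 and Fn1 against Lama5, Loxl3 (-0.19) and Plod2 (-0.22). The count was 3 without tunicamycin 5 h array 1 or vehicle array 3, and 0 without all arrays of replicate number 1. Col12a1, a collagen that sits on the surface of fibres, had group means of 5.67 to 6.03, under 6.07, and its call was lost without vehicle array 1 or 3 or tunicamycin 5 h array 1, 2 or 3 (adjusted p of 0.0596 to 0.144) and with array medians set equal. Under doxycycline 4 rose and 1 fell (14.7% called; 12.1% of all genes were called in this comparison, 6.54% higher and 5.56% lower): Timp3 (0.45), Lama4 (0.33), Fn1 (0.31) and Col12a1 (0.23) rose and Loxl3 fell by 0.21. Without doxycycline array 3 this count was 3. The fall of Loxl3 was lost without doxycycline array 3 (adjusted p = 0.0588), and the rise of Col12a1 without doxycycline array 2 or 3 or doxycycline plus tunicamycin 5 h array 2 or 3 (adjusted p of 0.0799 to 0.176).

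Further calls were of small differences. Plod1 was higher by 0.22 with doxycycline at 12 h of tunicamycin, a call lost with only the compared groups in the fit (limma, adjusted p = 0.0644). Sparc, a collagen-binding glycoprotein, read 13.31, 13.31 and 13.26 after 12 h of tunicamycin and 13.47, 13.46 and 13.49 with doxycycline as well, a difference of 0.18 ± 0.039 (SE, adjusted p = 0.00303). Hspg2 (0.23) and Col1a1 (0.30) rose and Col4a2 (-0.20), Nid1 (-0.21) and biglycan, Bgn (-0.17), fell over 12 h of tunicamycin under doxycycline. The call of Hspg2 was lost without doxycycline array 2 or doxycycline plus tunicamycin 12 h array 2 (adjusted p of 0.0611 to 0.0914). That of Col4a2 was lost without doxycycline array 1 or 3 or doxycycline plus tunicamycin 12 h array 2 or 3 (adjusted p of 0.0526 to 0.199), and that of Nid1 without doxycycline array 1 or doxycycline plus tunicamycin 12 h array 1 or 2 (adjusted p of 0.0669 to 0.0954). That of Bgn was lost without doxycycline array 1 or 2 or doxycycline plus tunicamycin 12 h array 1, 2 or 3 (adjusted p of 0.0554 to 0.219). Between 5 and 12 h of tunicamycin Col4a1 fell (-0.19), a call lost without tunicamycin 5 h array 1 or 2 or tunicamycin 12 h array 1 or 2 (adjusted p of 0.0597 to 0.185). Nid1 fell too (-0.20), a call lost without tunicamycin 5 h array 1 or 3 or tunicamycin 12 h array 1 or 2 (adjusted p of 0.0632 to 0.158). The groups of Col4a1 overlapped in that comparison.

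In 12 of the 34 genes there was no call in any of the 8 comparisons, a count given without that over all genes. These were Col3a1, Col5a2, Col6a1, Col6a2, Col18a1, Lama1, Nid2, Tnc, Dcn, Lox, Mmp2 and Timp1. Their differences lay between -0.25 and 0.21, and the 95% intervals reached from -0.44 to 0.44. Decorin, the small collagen-binding proteoglycan Dcn, had group means of 5.30 to 5.36, and tenascin C, Tnc, of 5.51 to 5.66. Of the 34 genes 8 had a mean at or under 6.07, where background adds to the signal and understates a fold change.

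Several genes of collagen processing, which hold ER enzymes and chaperones and the proteinases that trim secreted procollagen, rose at 12 h of tunicamycin, while Plod1 and Plod2 fell. Of 23 such genes measured 9 rose and 5 fell against vehicle (median 0.09), and 9 rose and 1 fell under doxycycline (60.9% and 43.5% called, against 27.7% and 29.9% of all genes). Fkbp14, a prolyl isomerase of the ER, rose by 1.09 from a vehicle mean of 9.10, P3h1, a prolyl 3-hydroxylase, by 1.00, Mia3, which loads procollagen into transport vesicles, by 0.77, and P4ha2, a prolyl 4-hydroxylase subunit, by 0.73. The adjusted p was no larger than 8.5e-06. At 5 h 0 rose and 1 fell (4.35% called, against 9.02% of all genes): Fkbp14 (-0.25), a call lost without vehicle array 1, 2 or 3 or tunicamycin 5 h array 2 or 3 (adjusted p of 0.0584 to 0.104). Doxycycline raised 2 and lowered 1 at 0 h, raised 6 at 5 h, and raised 6 and lowered 1 at 12 h (13%, 26.1% and 30.4% called, against 10.7%, 12.0% and 14.7% of all genes). At 0 h these were Bmp1, a procollagen proteinase (0.20), P3h1 (0.20) and P4hb (-0.16), the shared subunit of prolyl 4-hydroxylases. The call of P3h1 was lost without doxycycline array 1 or vehicle array 2 (adjusted p of 0.0704 to 0.0729) and with array medians set equal, and that of P4hb without vehicle array 1 or doxycycline array 2 (adjusted p of 0.0845 to 0.0891).

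Of 30 other collagen chains 2 rose and 1 fell with doxycycline at each of the 3 times (10%, 10% and 10% called, against 10.7%, 12.0% and 14.7% of all genes). Col10a1, the collagen of hypertrophic cartilage, was higher by 0.87, 1.38 and 1.28, Col4a5 by 0.41, 0.33 and 0.55, and Col15a1 lower at -0.23, -0.61 and -0.58. The call of Col15a1 at 0 h was lost without vehicle array 1 or 3 or doxycycline array 2 (adjusted p of 0.056 to 0.097). None of the 30 was called after 12 h of tunicamycin alone (against 27.7% of all genes), where their differences lay between -0.11 and 0.16. Of 14 other basement membrane genes 2, 2 and 3 rose and 0 fell with doxycycline at 0, 5 and 12 h (14.3%, 14.3% and 21.4% called, against 10.7%, 12.0% and 14.7% of all genes). Agrin, Agrn, rose with doxycycline at each time (0.20, 0.28 and 0.35) and so did the netrin Ntn4 (0.34, 0.39 and 0.31). The call of Agrn at 0 h was lost without vehicle array 1 or doxycycline array 1 or 3 (adjusted p of 0.0544 to 0.0892) and with array medians set equal. Agrn (-0.24) and Papln (-0.53) fell with 12 h of tunicamycin (14.3% called, against 27.7% of all genes).

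Of 37 other glycoproteins and proteoglycans 4 rose and 2 fell with doxycycline at 0 h, 7 and 3 at 5 h, and 5 and 2 at 12 h (16.2%, 27% and 18.9% called, against 10.7%, 12.0% and 14.7% of all genes). Thbs1, thrombospondin 1, was higher by 0.80, 1.23 and 1.38 at the 3 times, and fell by 0.78 with 12 h of tunicamycin alone. Prelp fell by 0.67 and Sparcl1 by 0.63 in that comparison, in which 2 rose and 7 fell (24.3% called, against 27.7% of all genes). Of 32 other crosslinkers, proteases and inhibitors 6 rose and 2 fell with doxycycline at 0 h, 7 and 0 at 5 h, and 10 and 3 at 12 h (25%, 21.9% and 40.6% called, against 10.7%, 12.0% and 14.7% of all genes). The aggrecanase Adamts4 (0.56, 0.75 and 0.76) and the metalloproteinase Mmp11 (0.51, 0.63 and 0.44) were among those that rose. Timp4, an inhibitor related to Timp3, rose by 0.85 with doxycycline at 5 h. After 12 h of tunicamycin alone 4 of the 32 rose and 7 fell (34.4% called, against 27.7% of all genes), with Adamts4 at -0.82 and Mmp11 at 0.46.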

How the data were processed

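RNA of 18 samples was hybridized to one-colour arrays, and the values deposited by the authors are log2 intensities of 35557 probe sets. The submitters' processing notes name RMA and Partek and no settings; background correction and scan batches were not varied here. Groups came from the sample titles. Of the probe sets 21789 carry 1 symbol, 1621 several and 12147 none; the brightest of each gene was kept, which left 19938 genes. Each of the 34 measured matrix genes had a single such probe set. The number of arrays limits the precision.

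Differences were tested with limma 3.58.1 in R 4.3.3 on the means of 6 groups over all 18 arrays (residual degrees of freedom 12, prior 5.99), adjusted by Benjamini-Hochberg over all genes with a threshold of 0.05, for 8 differences and 2 interactions. Intervals are 95% and unadjusted. The matrix genes, the other lists, the tests and the rule for named genes were chosen with earlier results of these data known. By that rule every listed matrix gene may be named, array values are given for those called with a difference of at least 0.4 on the log2 scale in 1 of the 8 comparisons, another matrix gene has values only as the one with the smallest p in its class, and up to 4 called genes with the largest change are named from each other list. Values of further called matrix genes (array values of Lamc1, Plod1 and Sparc among them) and of uncalled genes set beside them were added after they were seen.

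Alternatives were the replicate number as a block, a fit of only the compared groups, repeated quantile normalization, equal array medians, dim genes left out, the mean of probe sets, a variance trend with robust estimation, and single arrays or all arrays of 1 replicate number left out. The fit was tested on simulated data with 50 genes changed at each size. It called 8% to 26% of genes changed by 0.2 and 74% to 82% of those changed by 0.4, depending on the comparison. Small changes can thus go uncalled. A description of glycosylation sites was planned and not made, since protein sequences were not used here.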

Additional observations from a re-analysis of the deposited data

Results flagged for a closer look

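These results are listed because the doxycycline difference at 12 h of tunicamycin differed from that at 0 h by the interaction test (limma, adjusted p over all genes). Among the 34 matrix genes it was Plod2, with an interaction of 0.42 (adjusted p = 0.0213). That call was lost without some single arrays (adjusted p of 0.0531 to 0.0672). The difference of Plod2 over 12 h of tunicamycin was -0.55 without and -0.13 with doxycycline, the latter not called.

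Among the other matrix lists Ogn, a small proteoglycan, had 3.23 (adjusted p = 3.45e-10), from means of 4.94 in vehicle and 5.10 with doxycycline, levels of silent genes, to 5.33 and 8.72 at 12 h. Postn, periostin, which is also on the fibroblast marker list, had 0.62 (adjusted p = 0.00479) and Thbs1 0.58 (adjusted p = 0.00349). The isomerase Fkbp14 had 0.41 (adjusted p = 0.0292), a call lost without vehicle array 1, 2 or 3, doxycycline array 1, 2 or 3, tunicamycin 12 h array 1 or 2 or doxycycline plus tunicamycin 12 h array 2 or 3 (adjusted p of 0.0572 to 0.0889). The metalloproteinase Mmp23 had 0.44 (adjusted p = 0.0123). Mmp19 had -0.61 (adjusted p = 0.00727), with means between 5.62 and 6.23, and Col15a1 had -0.35 (adjusted p = 0.0492). The call of Col15a1 was lost without vehicle array 1, 2 or 3, doxycycline array 1, 2 or 3, tunicamycin 12 h array 1, 2 or 3 or doxycycline plus tunicamycin 12 h array 1 or 3 (adjusted p of 0.0513 to 0.143), with array medians set equal (adjusted p = 0.146) and with the replicate number as a block (adjusted p = 0.0501).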

How the results depend on the processing

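The 7 genes called with doxycycline at all 3 times kept their direction under every alternative run. Leaving out all arrays of 1 replicate number ended calls of Col1a2, Lamb2 and Timp3. Leaving out single arrays ended the doxycycline call of Col1a2 before tunicamycin and that of Timp3 at 12 h. The latter also ended with array medians set equal and with only the compared groups fitted. The count of matrix genes called stayed within 1.5 times under each alternative other than leaving out samples, except for the 12 h interaction. That count was 1, and 2 with quantile normalization repeated, 2 without dim genes and 3 with a variance trend. The arrays share only a number in the labels: their deviations from the group means correlated at a median r of 0.04 (-0.50 to 0.50) over 45 like-numbered pairs, 14 of them over 0.1, and 9 of 18 arrays correlated best, on average, with their own number. With that number as a replicate block 7, 11 and 16 matrix genes were called with doxycycline at 0, 5 and 12 h, and 13 with 12 h of tunicamycin; of the 34 genes it ended the call of Bgn (12 h under doxycycline, adjusted p = 0.0586), and among the other genes with a value in the text that of the Col15a1 interaction. Over all genes, the fit of only the compared groups called 1413 for doxycycline at 5 h, 1054 for tunicamycin at 5 h and 2 for the 5 h interaction, in place of 2386, 1798 and 6. The 5 h interaction had 15 with equal medians and 27 with a variance trend, and the 12 h interaction 567 with that trend. Chosen after seeing the data, leaving out array 2 of tunicamycin 5 h together with array 3 of tunicamycin 12 h called 9, 10 and 16 matrix genes with doxycycline and 14 with 12 h of tunicamycin; over all genes the 5 h interaction had 4. Setting array medians equal shifted the split of all calls for doxycycline at 0 h from 974 up and 1161 down to 587 up and 1761 down, for tunicamycin at 5 h from 813 up and 985 down to 495 up and 1578 down, for 12 h against 5 h from 2264 up and 2719 down to 2606 up and 1868 down, and for the 12 h interaction from 198 up and 169 down to 230 up and 87 down. Leaving out 1 array, all arrays of 1 number or that pair of arrays gave these ranges of matrix genes called: doxycycline at 0 h 4 to 9 (7 with every array), doxycycline at 5 h 6 to 11 (11 with every array), doxycycline at 12 h 10 to 16 (15 with every array), tunicamycin 5 h 0 to 5 (5 with every array), tunicamycin 12 h 10 to 14 (13 with every array), 12 h against 5 h 8 to 14 (11 with every array), 5 h under doxycycline 3 to 5 (5 with every array), 12 h under doxycycline 8 to 15 (15 with every array), the 5 h interaction 0 to 0 (0 with every array), the 12 h interaction 0 to 2 (1 with every array). For all genes the ranges were: doxycycline at 0 h 652 to 2558 (2135 with every array), doxycycline at 5 h 1012 to 2316 (2386 with every array), doxycycline at 12 h 1454 to 2900 (2936 with every array), tunicamycin 5 h 419 to 1728 (1798 with every array), tunicamycin 12 h 3617 to 5359 (5516 with every array), 12 h against 5 h 3283 to 4730 (4983 with every array), 5 h under doxycycline 941 to 2684 (2413 with every array), 12 h under doxycycline 4078 to 6317 (5971 with every array), the 5 h interaction 0 to 15 (6 with every array), the 12 h interaction 39 to 472 (367 with every array). Calls of single matrix genes lost with only the compared groups fitted were Col4a1 (doxycycline at 5 h), Lamc1 (doxycycline at 5 h), Lamc1 (doxycycline at 12 h), Sparc (doxycycline at 12 h), Plod1 (doxycycline at 12 h), Timp3 (doxycycline at 12 h), Lama4 (tunicamycin 5 h), Col1a2 (tunicamycin 12 h), Col4a1 (12 h against 5 h), Nid1 (12 h against 5 h), Col12a1 (5 h under doxycycline), Timp3 (12 h under doxycycline). Those lost with equal medians were Lamc1 (doxycycline at 5 h), Timp3 (doxycycline at 12 h), Col12a1 (tunicamycin 5 h), Lama4 (tunicamycin 5 h), Col4a1 (12 h against 5 h), Nid1 (12 h against 5 h), Col4a2 (12 h under doxycycline), Nid1 (12 h under doxycycline), Bgn (12 h under doxycycline). The cause was not tested, beyond that fewer arrays were fitted where some were left out. The number of arrays and, for the 8 dim genes, the signal over background limit what can be seen.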
